A study of Mus musculus with 10 samples.

Results

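The clustered protocadherins are the genes of the Pcdh alpha, beta and gamma clusters, and their members were taken by symbol from the deposited gene table. The 57 symbols that matched, out of 55367 genes listed, comprised 13 of the alpha cluster, 22 of the beta cluster and 22 of the gamma cluster. Each of the 10 samples is the cytoplasm of 1 inspiratory neuron of the preBötzinger complex (preBötC), drawn into a patch pipette in a slice of a neonatal mouse, so no sample has a replicate. Samples 1, 5, 6 and 7 carry the label Dbx1-derived and came from Dbx1;Ai148 offspring, in which Cre under the Dbx1 promoter switches on the calcium indicator GCaMP6f, on a C57Bl/6J background or a mix of it with CD1. Samples 2, 3, 4, 8, 9 and 10 carry the label WT and came from CD-1 mice without a reporter. Legends in the study divide the samples between the mouse lines differently, and the sample labels, which match the counts by type in its text, were followed. Type-1 neurons were samples 4, 5, 6 and 7, the single Type-2 neuron was sample 1, and the type of samples 2, 3, 8, 9 and 10 was Unknown. Samples 1, 3, 5 and 8 were taken at P0, sample 10 at P1, samples 2 and 9 at P2 and samples 4, 6 and 7 at P3. The labels name no animal, so neurons of the same litter or animal cannot be told from others.

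Clustered protocadherins are cell adhesion proteins of neurons that bind copies of themselves on a neighbouring membrane. A neuron draws a small set of them from the clusters by switching on some promoters and not others, and the resulting combination serves as a surface identity by which branches of the same cell recognise and avoid each other. The numbered alpha, beta and gamma A and gamma B members are known for this seemingly random choice. The 5 C-type members, Pcdhac1, Pcdhac2, Pcdhgc3, Pcdhgc4 and Pcdhgc5, lie at the ends of the alpha and gamma clusters, and in many neurons they are switched on without that choice. CTCF and cohesin bind many, but not all, of the promoters and join them to distant enhancers.

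In GENCODE M21 on GRCm38, the clusters lie one after the other on the plus strand of chromosome 18. The alpha cluster runs from 36930184 to 37187661, the beta cluster from 37264938 to 37524479, and the gamma cluster from 37661793 to 37841873. A beta member is read from exons of its own. Each alpha or gamma member has its own variable exon, spliced to 3 constant exons that every member of that cluster shares, which cover 2860 bases in the alpha and 2116 bases in the gamma cluster. Fragments from the constant exons were not credited to each member, since in every neuron that held alpha members most other alpha members were at 0 fragments. The counts therefore rest mainly on the variable exons, and the deposited FPKM, which divides by the whole gene length, understates the alpha and gamma members.

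How much of a gene could be counted differed between members. The bases covered by no other annotated gene ranged from 404 to 3767 in the 11 numbered alpha members, from 1107 to 8695 in the 22 beta members, from 0 to 4614 in the 19 gamma A and gamma B members and from 1821 to 4606 in the 5 C-type members. Pcdhga10 had 0 such bases, because the antisense transcript Gm26672 and the constant exons cover all of it, so its 0 fragments in the 10 neurons say nothing of its expression. Gm26672 itself had 366 fragments in sample 5 and 57 in sample 6, and at most 2 elsewhere. Pcdha4 had 404 such bases, the rest being covered by other genes such as Gm42416, which joins an alpha exon to the gamma constant exons and had 0 fragments in all 10 neurons. The symbol Pcdha11 stands for 2 annotated genes whose counts the table merges. Beta members resemble each other, yet among their transcript windows of 50 bases a median of only 4.46% occurred in another gene, with a highest share of 12% in Pcdhb12.

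A member was taken as held by a neuron at 1 CPM or more, where CPM is fragments per 1000000 counted on genes, provided that it also reached 1% of its highest CPM in any neuron. No value passed the first condition and failed the second. Over the 57 members and 10 neurons there were 570 values, of which 450 were 0, 64 were between 1 and 9 fragments, 12 between 10 and 99, and 44 were 100 or more. The 53 held values had a median of 760 fragments, with the lowest at 25 and the highest at 4341. The values above 0 that were not held had a median of 1 fragment. Of the 64 values from 1 to 9 fragments, 59 belonged to members that another neuron held, and these reached at most 0.553% of that member's highest CPM. Members were thus either well represented or nearly absent in a neuron, with few values between. This split was not counted over all genes, so it cannot be called particular to the members. Among genes outside the clusters, Smc1a had between 3 and 7 fragments in samples 1, 3 and 8 and between 182 and 4135 in the others. Pcdh7, by contrast, had between 84 and 1728 fragments in every neuron.

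**Figure D1:**
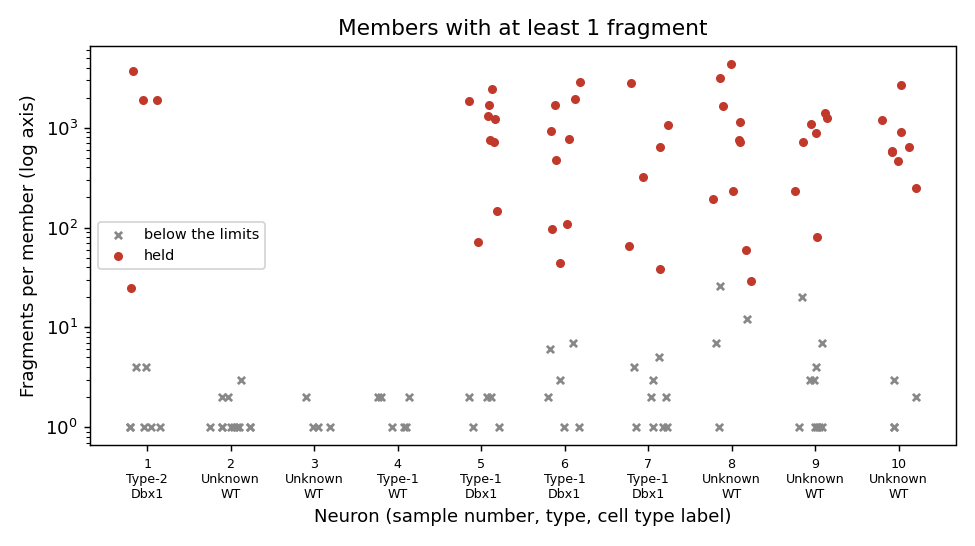
Fragments per member (log axis) in each neuron, for every member with at least 1 fragment; red points are held and grey crosses lie below the limits. Samples 2, 3 and 4 hold crosses only, none above 3 fragments, whereas the held points of the other neurons reach up to 4341 fragments.

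The values nearest the limit of 1 CPM were few. Just above it were Pcdhgb1 in sample 8 at 1.09 CPM, Pcdhb20 in sample 1 at 1.17 CPM and Pcdhga6 in sample 6 at 1.40 CPM. The nearest below it were Pcdhgb2 in sample 8 at 0.979 CPM, Pcdhgb1 in sample 9 at 0.906 CPM and Pcdhgb8 in sample 8 at 0.452 CPM. They came from 26, 20 and 12 fragments. For Pcdhb20 in sample 1, the exact 95% Poisson interval ran from 0.756 to 1.73 CPM and so spanned the limit. So did those of Pcdhgb1 in sample 8 (0.731 to 1.57 CPM), Pcdhgb2 in sample 8 (0.639 to 1.43 CPM) and Pcdhgb1 in sample 9 (0.553 to 1.40 CPM). These intervals cover counting error only, since the reads carry no molecular identifiers.

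Of the 57 members, 34 were held by at least 1 neuron, a larger share than the 30.6% of all 55367 listed genes. Of these 34 members, 21 were held by exactly 1 neuron and 11 by exactly 2, and 2 by more, namely Pcdhac2 by 4 and Pcdhgc4 by 6. Among all genes held by at least 1 neuron, 24.2% were held by exactly 1, where the members came to 61.8%. In the median held member, 99.5% of all fragments came from a single neuron, and the same figure over all held genes was 49.3%. In 24 of the 34 held members the leading neuron had over 90% of the fragments, a larger share than the 24% of all held genes.

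**Figure D2:**
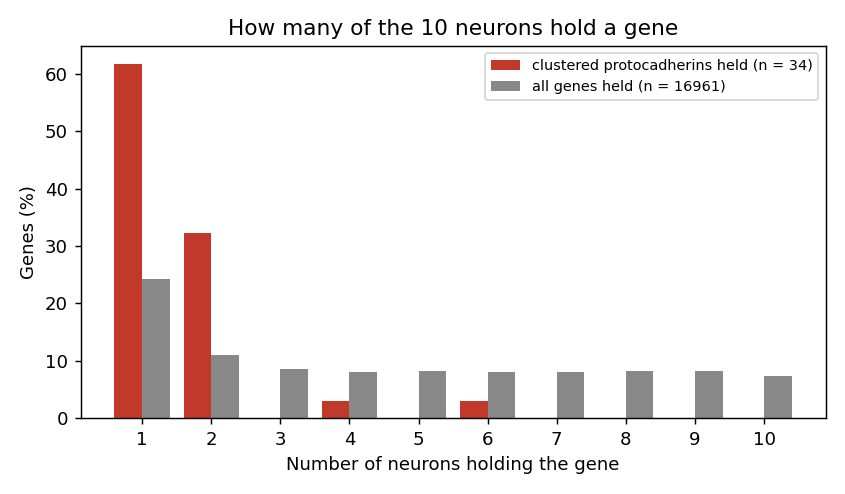
Share of genes (%) held by 1 to 10 of the neurons, for the 34 held members (red) and the 16961 genes held by at least 1 neuron (grey). The members fall on 1 or 2 neurons apart from Pcdhac2 (4) and Pcdhgc4 (6), whereas the grey bars extend to all 10 neurons with 7.44% of genes there.

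Of the 10 neurons, 7 held members, each a different set, and 3 held none. The number was 4 in sample 1, 9 in sample 5, 9 in sample 6, 6 in sample 7, 10 in sample 8, 7 in sample 9 and 8 in sample 10, with a mean of 7.57 ± 2.07 (SD, n = 7 neurons). As a share of the 57 members this was 7.02% in sample 1 and between 10.5% and 17.5% in samples 5 to 10, where 9.63% and between 12.6% and 17.8% of all listed genes were held. The number held per neuron was thus near or below that background. Every one of these neurons held at least 1 member of each of the 3 clusters. Their members together amounted to between 193 and 464 CPM, and the held members took between 99.3% and 99.9% of the fragments on the clusters. Beta members were held by all 7, numbered alpha members by 6, C-type members by 6 and gamma A or gamma B members by 5.

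**Figure D3:**
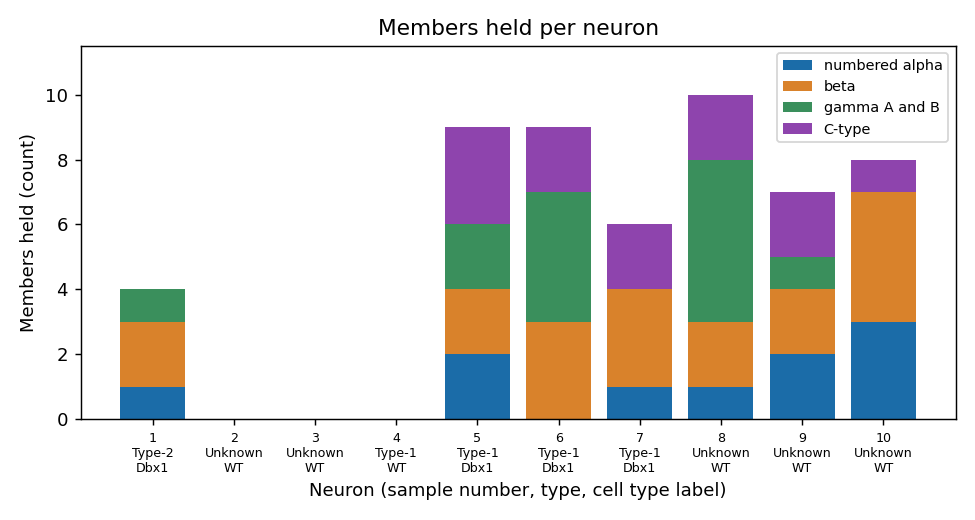
Number of members held by each neuron, stacked by kind of member. Samples 2, 3 and 4 have no bar, sample 1 holds 4 members without a C-type member, and sample 8 has the tallest bar with 10.

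Sample 1, the Type-2 neuron, held Pcdha6, Pcdhb17, Pcdhb20 and Pcdhga12. Pcdha6 was at 172 CPM from 3688 fragments and took 49.1% of the fragments on the clusters there. Pcdhb17 was at 88.5 CPM and Pcdhga12 at 88.6 CPM, from 1894 and 1895 fragments. On the scale of FPKM on unshared bases, which divides the CPM by the kilobases covered by no other gene, the level of Pcdha6 was 91.4, that of Pcdhga12 21.5 and that of Pcdhb17 19. Compared per length, Pcdha6 thus stood above the other held members of this neuron. No C-type member was held, the nearest being Pcdhgc4 with 4 fragments.

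Sample 5, a Type-1 neuron, held 9 members, and 5 of them were held by no other neuron. These 5 were Pcdha3 at 20.7 CPM, Pcdhb14 at 35.7 CPM, Pcdhb21 at 45.6 CPM, Pcdhga3 at 19.5 CPM and the C-type Pcdhgc5 at 3.99 CPM. Pcdha7 took the most alpha fragments, 1871, and Pcdhgc4 the most gamma fragments, 2435. No member dominated, as the leading one took 23.8% of the fragments, the lowest such share of the 7 neurons.

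Sample 6, also Type-1, held 9 members but no numbered alpha member, so that Pcdhac2 with 475 fragments stood for its alpha cluster. Its beta members were neighbours in the genome, Pcdhb6 at a level of 24.3 FPKM, Pcdhb7 at 15.3 FPKM and Pcdhb8 at 0.994 FPKM. From the gamma cluster it held Pcdhga6, Pcdhga11, Pcdhgb6 and Pcdhgb7 beside Pcdhgc4. Pcdhga11, with 0 fragments in every other neuron, was at 29.3 CPM from 924 fragments, although only 1256 of its bases are unshared.

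Sample 7, the remaining Type-1 neuron with members, held 6. Pcdha1 was at 41.3 CPM and was not seen in any other neuron, with 0 fragments in each. Its beta members Pcdhb13, Pcdhb16 and Pcdhb19 were held nowhere else, at 1.48, 2.53 and 12.5 CPM from 38, 65 and 322 fragments. It held no gamma A or gamma B member, and Pcdhgc4 took 56.8% of its fragments on the clusters, the highest leading share of the 7 neurons.

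Sample 8, an Unknown neuron, held 10 members and was rich in gamma B. Pcdhgb1, Pcdhgb4, Pcdhgb5, Pcdhgb6 and Pcdhgb7 were all held, Pcdhgb5 at 118 CPM from 3136 fragments. Pcdhgb2 was just below the limit at 0.979 CPM, and Pcdhgb8 was further below it at 0.452 CPM. No gamma A member was held. Pcdhb3 had the most fragments of any member in any neuron, 4341, or 163 CPM. Pcdha8 was its alpha member, at 62.5 CPM from 1661 fragments, and was held by no other neuron, nor were Pcdhgb4 and Pcdhgb5. Sample 8 was also the only neuron to hold the C-type Pcdhgc3, at 7.19 CPM from 191 fragments.

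Sample 9, another Unknown neuron, held 7 members, of which Pcdha4, Pcdha11 and Pcdhgb2 were held by it alone. Pcdha11 was at 56.5 CPM from 1247 fragments. Pcdha4 was at 3.67 CPM from 81 fragments, but on its 404 unshared bases this came to 9.08 FPKM, within the range of the other held values of numbered alpha members on that scale, 7.80 to 91.4 FPKM. Pcdhb7 took the most beta fragments, 888, and Pcdhgc4 the most gamma fragments, 1413.

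Sample 10, the Unknown neuron taken at P1, held 3 numbered alpha and 4 beta members, more of each than any other neuron. Its alpha members were close in fragments, with 582 for Pcdha6, 569 for Pcdha7 and 463 for Pcdha12. Per length, Pcdhb9 led its beta members at 29 FPKM, followed by Pcdhb6 at 10.5 FPKM, Pcdhb20 at 8.27 FPKM and Pcdhb17 at 1.75 FPKM. From the gamma cluster only Pcdhgc4 was held, at 21.2 CPM. Pcdha12 was its single member not held elsewhere.

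**Figure D4:**
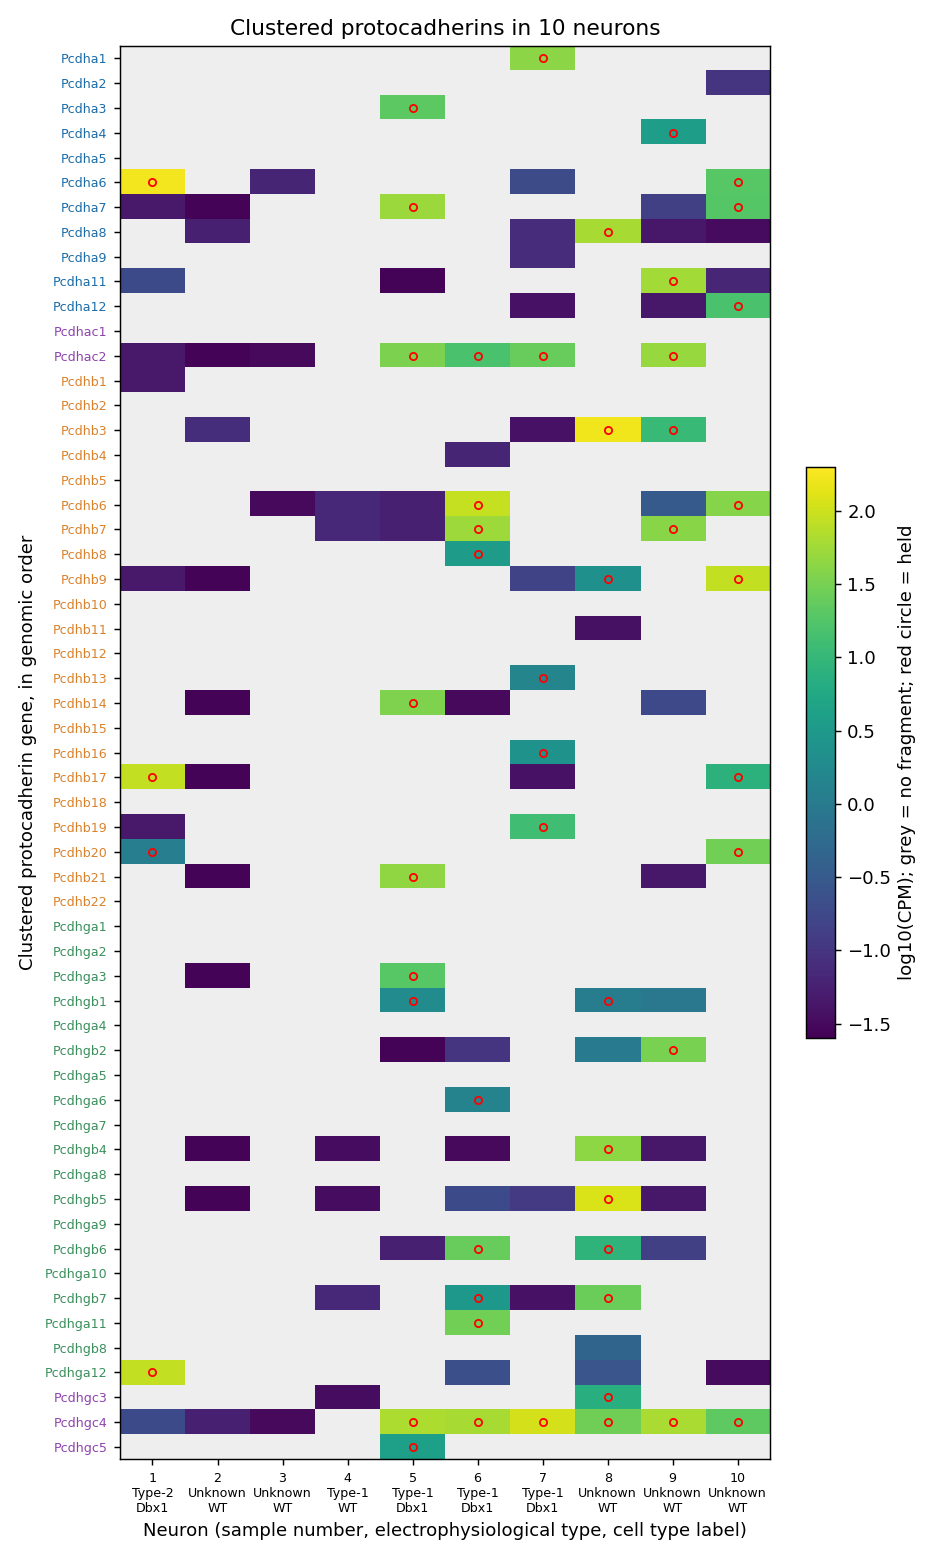
log10(CPM) of the 57 members, in genomic order, in the 10 neurons; grey cells have no fragment, red circles mark held members, and gene names are coloured by kind (blue numbered alpha, orange beta, green gamma A and gamma B, purple C-type). Each column carries its own pattern of circles, the row of Pcdhgc4 is filled in samples 5 to 10, and samples 2, 3 and 4 have no circle.

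At 1 CPM, the members held by more than 2 neurons were Pcdhgc4 and Pcdhac2, both C-type. Pcdhgc4 was at 66.5, 62.1, 110, 28.6, 64 and 21.2 CPM in samples 5 to 10, and had 4, 2, 1 and 0 fragments in samples 1 to 4. Pcdhac2 reached 33.7 CPM in sample 5, 15.1 CPM in sample 6 and 24.8 CPM in sample 7, all Type-1. Sample 9, of Unknown type, had 49.8 CPM of it, and each of the other 6 neurons had 0 or 1 fragment. Pcdhgc3 and Pcdhgc5 were held by 1 neuron each, samples 8 and 5, and Pcdhac1 had 0 fragments in all 10, for which the one-sided 95% limit is 3 per library, or between 0.0819 and 0.140 CPM. C-type members were therefore not held as a block, and 2 of the 5 account for 10 of the 12 C-type values held.

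Per neuron, a mean of 24% of the C-type members was held, against 7.88% of all other members. The difference of 16.1 percentage points (SD 18.7, n = 10 neurons) was positive in 6 neurons, negative in 1 and 0 in 3. An exact two-sided permutation test that flips the sign of each neuron's difference gave p = 0.0469. After Benjamini-Hochberg adjustment over the 5 tests made on these genes, p was 0.234. Neurons with a difference of 0 have no sign to flip, so only the 6 positive and 1 negative values bear on p. With so few, and with the other p-values as they were, no adjusted p below 0.05 was possible. The adjusted test therefore cannot decide on this difference.

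A mean of 8.18% of beta members was held per neuron, 9.09% of numbered alpha members and 6.84% of gamma A and gamma B members. Beta minus gamma was 1.34 percentage points (SD 9.90, n = 10 neurons, exact permutation p = 0.703, adjusted p = 0.905), and beta minus alpha was -0.909 points (SD 7.04, n = 10 neurons, exact permutation p = 0.812, adjusted p = 0.905). Both differences were smaller than the spread between neurons. Beta minus alpha was 0 in 5 neurons, which have no sign to flip. The 2 positive and 3 negative values left could not give p below 0.05, so that test cannot decide on the difference. With members held at 1 FPKM on unshared bases, which takes account of the bases that could be counted, beta minus gamma was 0.646 points and beta minus alpha -3.18 points (exact permutation p = 0.172, adjusted p = 0.430).

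Every numbered alpha, beta or gamma member was held by at most 2 neurons at 1 CPM. At 0.1 CPM Pcdhgb1 was held by 3, samples 5, 8 and 9. Of the 11 numbered alpha members, 6 were held by 1 neuron, 2 by both of a pair and 3 by none. Pcdha2 and Pcdha9 were below the limits with 3 and 2 fragments in all, and Pcdha5 had none. Of the 22 beta members, 6 were held by 1 neuron and 6 by a pair. Those held by a pair were Pcdhb3, Pcdhb6, Pcdhb7, Pcdhb9, Pcdhb17 and Pcdhb20. The other 10 were not held, and 7 of them had 0 fragments in all neurons, namely Pcdhb2, Pcdhb5, Pcdhb10, Pcdhb12, Pcdhb15, Pcdhb18 and Pcdhb22. Pcdhb1, Pcdhb4 and Pcdhb11 had 1, 2 and 1.

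Within the gamma cluster, A and B members were held unevenly. Of the 12 gamma A members, 4 were held, each by 1 neuron, and the other 8, Pcdhga1, Pcdhga2, Pcdhga4, Pcdhga5, Pcdhga7, Pcdhga8, Pcdhga9 and Pcdhga10, had 0 fragments in all 10 neurons. Of the 7 gamma B members, 6 were held, and 3 of these, Pcdhgb1, Pcdhgb6 and Pcdhgb7, by both of a pair of neurons. The gamma B member not held, Pcdhgb8, is annotated as a polymorphic pseudogene. In all there were 4 held gamma A values and 9 held gamma B values. Of the latter 5 came from sample 8 alone, so the contrast rests largely on that neuron, and it was noticed after the values were seen and was not tested. The unshared bases had a median of 2568 in gamma A and 2622 in gamma B members.

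Combinations were compared over the 21 pairs of the 7 neurons that held members. No pair had identical sets, and 5 pairs shared no member. All of those 5 were pairs of sample 1, which held no C-type member, whereas every pair among samples 5 to 10 shared Pcdhgc4. The median pair shared 2 members, which in many pairs were the C-type Pcdhac2 and Pcdhgc4. With the C-type members left aside, 13 of the 21 pairs had no member in common, 6 shared 1, 1 shared 2 and 1 shared 3. Of the members held by either neuron of a pair, C-type included, a median of 12.5% was held by both (range 0 to 33.3%), against a median of 51.8% (range 34.7% to 63.1%) over all genes in the same 21 pairs. The pair with 2 was samples 6 and 8, with Pcdhgb6 and Pcdhgb7.

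The pair with 3 was samples 1 and 10, a Type-2 neuron of a Dbx1;Ai148 mouse and an Unknown neuron of a CD-1 mouse, which differ in line and age. They shared Pcdha6, at 172 and 19.1 CPM, Pcdhb17, at 88.5 and 8.16 CPM, and Pcdhb20, at 1.17 and 29.4 CPM. Pcdha6 and Pcdhb17 were higher in sample 1 and Pcdhb20 in sample 10. Pcdhb20 in sample 1 reached 3.97% of its level in sample 10, and with a limit of 5% the pair would share 2 members. The values of Pcdha6 and Pcdhb17 in sample 10 were 11.1% and 9.22% of those in sample 1.

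Samples 2, 3 and 4 held no member. Their fragments on the clusters were 16, 5 and 9 in all, with at most 3 on any member, which is 0.441, 0.161 and 0.306 CPM. All of these fragments fell on members that other neurons held. Their totals were 36256882, 31150630 and 29435915 fragments on genes, against 21392146 to 36629393 in the other 7. Genes held at the same limits numbered 5977, 5203 and 7453, against 5332 in sample 1, 6956 in sample 9 and between 9210 and 9871 in samples 5, 6, 7, 8 and 10. Samples 1 to 4 also stood apart before sequencing, with the lowest cDNA concentrations of the 10. Sample 1, in the same range of genes held, had 351 CPM on the clusters. The part of RNA yield in the absence of members was not tested.

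The markers of other cells moved with this result in part. Of 8 neuron markers, such as Snap25 and Tubb3, sample 2 held 7 and sample 3 all 8, whereas sample 4 held 3, with a summed level of 250 CPM against 2714 to 14653 CPM in the other 9 neurons. All 8 microglia markers, such as Tyrobp and Csf1r, were held in samples 2 and 4, at 2952 and 18356 CPM, and the other neurons had 491 CPM or less. Of 10 astrocyte markers, such as Aqp4 and Apoe, 8 were held in each of samples 2 and 3, at 9077 and 16371 CPM, and 5 in sample 4 at 11203 CPM, of which Apoe alone gave 10671 CPM. Of 7 oligodendrocyte lineage markers, such as Olig1 and Mbp, samples 2, 3 and 8 held 4 each, at 759, 2051 and 295 CPM, and the others held 2 or fewer. Sample 8, which held the most members, had 9 astrocyte markers at 5867 CPM. The part of such RNA in the absence of members, or in the presence of Pcdhgc3 in sample 8, was not tested.

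The non-clustered protocadherins, which are single genes outside the clusters, were also counted in each neuron. Of the 12 listed, samples 2, 3 and 4 held 4, 5 and 5, and the other 7 neurons between 4 and 8. Pcdh7 was held by all 10 neurons at 33.2 ± 16.3 CPM (SD, n = 10 neurons), with 39.1, 42.5 and 25.2 CPM in samples 2, 3 and 4. Pcdh9 was at 242 CPM in sample 3 and at 0.138 CPM in sample 2. In sample 4 it was at 5.64 CPM. Pcdh10 was at 0.193, 131 and 9.21 CPM in samples 2, 3 and 4, and Pcdh17 at 47, 122 and 4.31 CPM. The summed level of the list was lowest in sample 4, at 55.2 CPM, and highest in sample 8, at 706 CPM. Pcdh20 had 0 fragments in all 10 neurons.

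Of the 15 regulators listed, which include the insulator protein gene Ctcf, the cohesin genes Rad21, Smc1a and Smc3 and the silencing factor gene Smchd1, between 5 and 14 were held per neuron. Sample 4 held the most, 14, without a member, and sample 3 the fewest, 5. Ctcf was held by 7 neurons, samples 4 to 10, at between 18.5 and 134 CPM, and was at 0.0467, 0.165 and 0.0321 CPM in samples 1, 2 and 3. Sample 1, with 4 members held, had 1 Ctcf fragment, and sample 4, with no member held, had 71.8 CPM of Ctcf. Sample 1 held only 5332 genes in all, and sample 4 held 3 of the 8 neuron markers. The part of Ctcf in which members are held was not tested. Dnmt3a, a DNA methyltransferase gene, was held by all 10 neurons at 171 ± 106 CPM (SD, n = 10 neurons), and Mau2, a cohesin loader gene, by 9 at 137 ± 139 CPM. Setdb1, a histone methyltransferase gene, was held by 8 at 111 ± 101 CPM. Dnmt3b was held in sample 4 alone, at 19 CPM.

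Of 18 listed partners of the protocadherins at the membrane and inside the cell between 11 and 15 were held per neuron, and samples 2, 3 and 4 held 14, 11 and 11. Cyfip2, a gene of the WAVE actin regulator complex that binds protocadherin tails, was at 453 ± 379 CPM (SD, n = 10 neurons) and held by 9. Marcks, which encodes a membrane-bound actin regulator, was at 396 ± 273 CPM and Rac1, which encodes a small GTPase upstream of WAVE, at 382 ± 190 CPM, both held by all 10. Fzd5 had 0 fragments in every neuron.

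**Figure D5:**
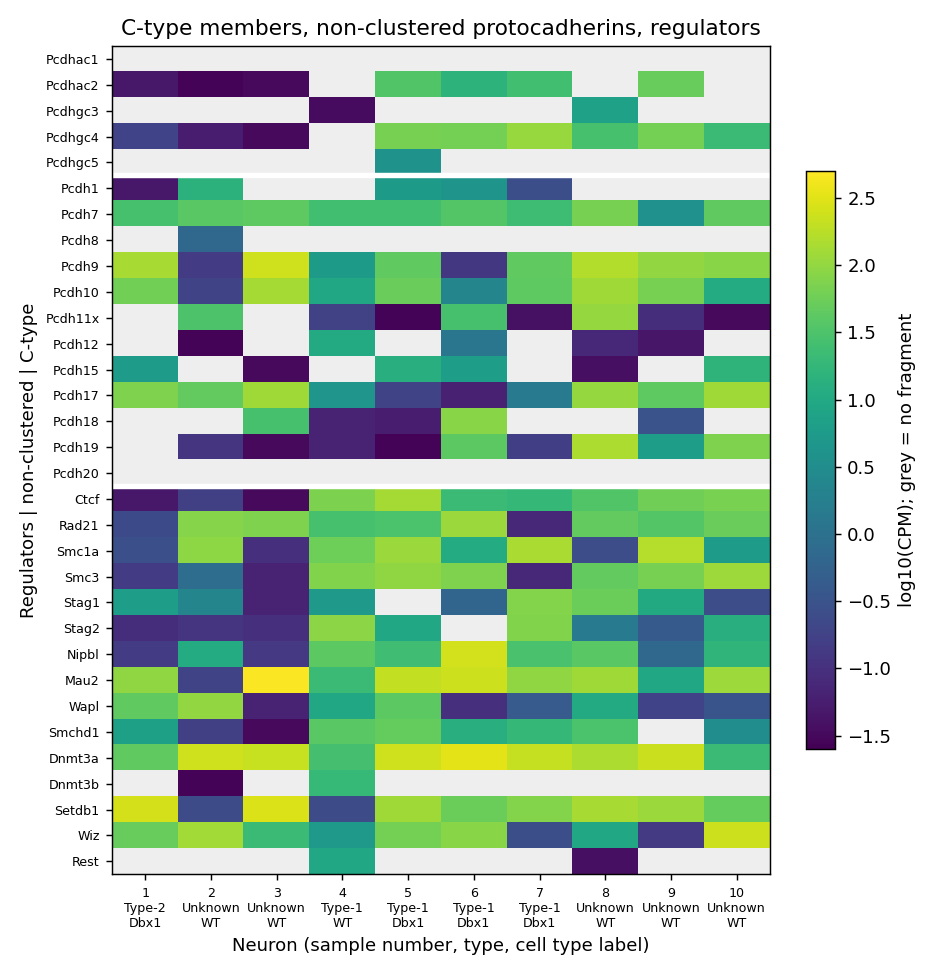
log10(CPM) of the C-type members (top block), the 12 non-clustered protocadherins (middle) and the 15 regulators (bottom) in the 10 neurons; grey cells have no fragment. Pcdh7 is filled in all columns, Pcdhgc4 is bright in samples 5 to 10, and Ctcf is dark in samples 1, 2 and 3.

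By mouse line, the Dbx1-derived neurons held 4, 9, 9 and 6 members (mean 7 ± 2.45, SD, n = 4 neurons) and the WT neurons 0, 0, 0, 10, 7 and 8 (mean 4.17 ± 4.67, SD, n = 6 neurons). The difference of 2.83 members was smaller than the spread within WT, and the ranges overlapped (exact two-sided permutation test, p = 0.305, adjusted p = 0.762). The smallest p this design allows is 0.00952. Without samples 2, 3 and 4 the difference was -1.33, so its direction rests on the neurons without members.

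By electrophysiological type, the Type-1 neurons held 0, 9, 9 and 6 members (mean 6 ± 4.24, SD, n = 4 neurons) and the Unknown neurons 0, 0, 10, 7 and 8 (mean 5 ± 4.69, SD, n = 5 neurons). The difference of 1 member was smaller than the SD of either group (exact two-sided permutation test, p = 0.905, adjusted p = 0.905), and the smallest p this design allows is 0.0159. Without sample 2 or without sample 3 it was -0.25, without sample 5 or without sample 6 it was 0, and without sample 4, the library with few neuron markers, it was 3. Each pair of the Type-1 samples 5, 6 and 7 had only Pcdhac2 and Pcdhgc4 in common, and the Type-1 sample 4 held no member. The Type-2 group is the single sample 1, which was not tested.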

How the data were processed

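RNA from 10 patched neurons was converted to cDNA with the SMART-Seq v4 kit and sequenced, 1 library per neuron. The authors trimmed reads with bbduk, aligned them with STAR 2.7.7a to GRCm38 and the Ensembl 102 annotation, and deposited raw fragment counts per gene from featureCounts. They also deposited FPKM values, computed from those counts and gene lengths. Options for fragments on several places or genes were not given in the sources used here, and neither was strand, so a member and an antisense gene over it cannot be told apart. The deposited length of each of the 57 members equals the union of its exons in GENCODE M21.

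Here CPM was taken per 1000000 fragments counted on genes, which ranged from 21392146 to 36629393 per library. A member was held at 1 CPM or more and at 1% or more of its highest CPM. The rule was run on simulated data whose held genes all lay above 1 CPM. Those data had counting error and, at a low rate, reads added from other libraries. That run cannot show how the rule handles values near the limit or RNA lost before amplification. The members and lists were chosen with earlier results of these data known. Named are the C-type members, the member with the most fragments per cluster and neuron, members held by at least 4 neurons, the values nearest 1 CPM and the leading genes of each list. Others were named after their values were seen. Of 5 endothelial markers 0 or 1 was held per neuron. Tests over neurons were exact permutation tests, 5 in all, adjusted by Benjamini-Hochberg. Their p-values measure the spread between these neurons, whose animals are not named. Alternatives were other limits, FPKM, FPKM on unshared bases, thinning to the smallest total and leaving out libraries. Exact tests were run in SciPy 1.17.1, tables were handled with pandas 2.3.3 under Python 3.11.15, and figures were drawn in Matplotlib 3.10.9. Transcript sequences of the members were used here to find the windows that occurred in another gene, and are not shown.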

Additional observations from a re-analysis of the deposited data

Results flagged for a closer look

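In 28 groups of values, formed from 7 measures on the clusters in 4 groups of neurons, a neuron far from the others was looked for by Dixon's criterion, and about 1 in 20 groups would show it by chance. Pcdhac2 met it in sample 9, at 49.8 CPM, where the nearest of the remaining Unknown neurons had 0.0321 CPM, and likewise among the 6 WT neurons. The 3 Dbx1-derived Type-1 neurons had between 15.1 and 33.7 CPM of Pcdhac2, so sample 9 lay above them.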

How the results depend on the processing

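Of 195 values recomputed under alternatives, 177 kept their direction or, where untested, were classed as similar in size. Of the rest, 5 differences became 0, 11 reversed and 2 moved. The counts of members held have no spread between neurons to set them against. No adjusted p fell below 0.05 under any of them. Type-1 minus Unknown became -0.15 members at 1 FPKM, -0.1 at 1 FPKM on unshared bases and -0.333 both without samples 1 to 4 and, a choice made after seeing the data, without samples 2, 3 and 4. Dbx1-derived minus WT became -0.333 and -1.33 under the same omissions, and the median share of members common to a pair of neurons rose from 0 to 13.3% and 12.5%, since pairs with an empty set drop out. Beta minus gamma A and B became -0.239 points at 0.1 CPM.

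With each neuron left out in turn, Type-1 minus Unknown ran from -0.25 to 3 members, Dbx1-derived minus WT from 2 to 4, beta minus gamma from -0.532 (without sample 10) to 3.40 points (-0.0266 without sample 7) and C-type minus others from 12.5 to 18.8 points, with adjusted p from 0.156 to 0.469. C-type minus others was 28.1 points without samples 1 to 4 and 23 without samples 2, 3 and 4. Beta minus alpha ran from -2.53 to 0, and was 0 without sample 5, 9 or 10. Type-1 minus Unknown was 3 without sample 4. Members held by at least 1 neuron numbered 29 to 34, and those held by exactly 1 numbered 17 to 26. Over all alternatives the members held ranged from 26 to 35. The one-sided 95% limit for a count of 0 is 3 fragments, or between 0.0819 and 0.140 CPM, and RNA lost before amplification was not measured.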

Other observations

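Transcripts annotated on the opposite strand of the clusters had fragments in some neurons, not always those that held the member they overlap. Gm37753, which lies across the start of Pcdha6, had 96 fragments in sample 1 and 7 in sample 10, the neurons that held Pcdha6, and 0 in the other 8. Gm26672, which overlaps Pcdhga10, Pcdhgb7, Pcdhga11 and Pcdhga12, had 366 fragments in sample 5 and 57 in sample 6. Of these members sample 5 held none, and sample 6 held Pcdhgb7 and Pcdhga11. Sample 8 held Pcdhgb7 with 713 fragments and sample 1 held Pcdhga12 with 1895, and Gm26672 had 0 fragments in both. Gm10544, which overlaps Pcdha11, had 154 fragments in sample 7 and 236 in sample 10, where Pcdha11 had 0 and 2, and 0 in sample 9, which held Pcdha11. The kit does not mark strand, so these fragments cannot be told apart from those of the members. This comparison was chosen after the values were seen and was not tested.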
